A study of Mus musculus with 72 samples.

Results

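The 8 genes described here encode enzymes and cofactors that write, copy and remove 5-methylcytosine in DNA: Dnmt1, Uhrf1, Dnmt3a, Dnmt3b, Dnmt3l, Tet1, Tet2 and Tdg. They were taken by symbol from the 51826 genes in the count files, and all 8 passed the filters on low values in every comparison. The question was how much of each transcript lay in the nucleus, the cytosol and the membrane fraction of mouse embryonic stem cells. It was also asked how the share of new copies in each place rose with labeling time.

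DNA methylation is copied at replication by DNMT1, which UHRF1 recruits to half-methylated DNA, whereas DNMT3A and DNMT3B place new marks with DNMT3L as a catalytically inactive cofactor. TET1 and TET2 oxidize 5-methylcytosine, and TDG cuts out the oxidized bases so that base excision repair restores an unmodified cytosine. Mouse embryonic stem cells kept in 2i medium are known for low DNA methylation, and the balance of these activities is a classical subject in that culture state. DNA methylation itself was not measured here.

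All libraries came from E14TG2a, an established mouse embryonic stem cell line, grown in 2i + LIF medium with CHIR99021 and PD0325901, so that every group shares these inhibitors. The medium also held fetal bovine serum. RNA was labeled with 4-thiouridine (4sU), a uridine analog whose alkylated form is sequenced as C, and T-to-C (T2C) conversions therefore mark RNA made during labeling. Cells were separated by sequential detergent extraction in buffers with cycloheximide into a cytosolic, a membrane and a nuclear fraction beside a whole-cell extract, and poly(A) RNA was sequenced. There were 72 libraries from 6 replicates, of which 64 were used, 16 per fraction. The labeling lasted 15, 20 and 30 min in replicates 1 and 2. It lasted 20, 40 and 60 min in the libraries used of replicates 3 and 4. In replicates 5 and 6 it lasted 60 and 120 min. Labels give 500 µM 4sU up to 40 min and 100 µM from 60 min. The 8 libraries of 120 min of replicates 3 and 4 are labeled 100 µM. The methods of the study give doses per count of replicates, without numbering them. These 8 were taken as 500 µM libraries, which the study left out beyond 60 min, and they were used only where this is stated. For 60 min the labels give only 100 µM, where the methods name both doses. The estimated T2C conversion rate of new RNA in the nucleus at 60 min was 7.66 and 8.29% in replicates 3 and 4. In replicates 5 and 6 it was 3.25 and 3.53%, so that the 60 min values of these pairs come from unlike labeling. The cause was not tested. Labeling time and 4sU dose, as labeled, cannot be told apart where 60 or 120 min is set against shorter times, and across replicate pairs the culture differs as well.

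Libraries held 13185351 to 52975732 reads on genes, with a median of 21494524.5. The summed level of the 6 stem cell markers Pou5f1, Sox2, Nanog, Zfp42, Esrrb and Klf4 was between 1996 and 7601 in every library, while 3 fibroblast markers summed to at most 12.9. The nuclear RNAs Malat1, Neat1 and Kcnq1ot1 had a median sum of 429 in the nucleus against 60.1 in the cytosol. The 3 endoplasmic reticulum markers Hspa5, Calr and P4hb had 3967 in the membrane fraction, 1316 in the nucleus and 219 in the cytosol. The cytosolic markers Gapdh, Eno1 and Tpi1 were less apart, with 2828 in the cytosol, 2135 in the nucleus and 1391 in the membrane fraction. Eno1 alone had a higher median in the nucleus (541) than in the cytosol (453). In replicate 6 of the whole-cell extract the 60 min library was labeled more than the 120 min library, with median shares of new RNA over genes of 0.374 and 0.175, against the order of their labels. Whole-cell shares are therefore given with and without replicate 6.

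In GRCm38 coordinates with Gencode M21 gene models, Dnmt1 (ENSMUSG00000004099) lies on the minus strand at chr9:20907209-20959888 and Uhrf1 (ENSMUSG00000001228) on the plus strand at chr17:56303321-56323486. Of the de novo group, Dnmt3a (ENSMUSG00000020661) spans chr12:3806007-3914443, Dnmt3b (ENSMUSG00000027478) spans chr2:153649450-153687730 and Dnmt3l (ENSMUSG00000000730) spans chr10:78041947-78063622, all on the plus strand. Tet1 (ENSMUSG00000047146) is on the minus strand at chr10:62804570-62908996, Tet2 (ENSMUSG00000040943) on the minus strand at chr3:133463679-133545139 and Tdg (ENSMUSG00000034674) on the plus strand at chr10:82629828-82650799. Dnmt3a and Tet1 are the longest of them, at 108.4 and 104.4 kb, and Uhrf1 is the shortest at 20.2 kb.

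4sU can only be read where a transcript has a U, so the T positions of an exon are what a share of new RNA is counted on. Below are 2 wholly coding exons each of Dnmt1, Tet1 and Tet2, from Gencode M21 transcripts, chosen because they lie nearer to and farther from the 3′ end, which is transcribed last. Each is written 5′ to 3′ on the transcript strand, with the T positions in capitals, and their shares over time are given further down with the other exons. The Dnmt1 exons are 36 and 16 of 39 at chr9:20909090-20909285 and chr9:20926445-20926554 and hold 40 and 31 T. Those of Tet1 are 9 and 6 of 11 at chr10:62814436-62814573 and chr10:62822549-62822760, with 36 and 52 T. Those of Tet2 are 9 and 6 of 11 at chr3:133471340-133471477 and chr3:133480133-133480341, with 32 and 50 T.
Dnmt1 exon 36: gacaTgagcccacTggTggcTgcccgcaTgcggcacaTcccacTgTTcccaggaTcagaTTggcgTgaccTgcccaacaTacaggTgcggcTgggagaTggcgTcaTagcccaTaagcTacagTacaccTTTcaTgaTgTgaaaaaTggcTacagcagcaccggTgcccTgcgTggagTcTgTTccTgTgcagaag
Dnmt1 exon 16: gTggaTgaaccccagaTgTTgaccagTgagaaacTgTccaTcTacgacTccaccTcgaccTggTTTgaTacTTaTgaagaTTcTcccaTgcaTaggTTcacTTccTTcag
Tet1 exon 9: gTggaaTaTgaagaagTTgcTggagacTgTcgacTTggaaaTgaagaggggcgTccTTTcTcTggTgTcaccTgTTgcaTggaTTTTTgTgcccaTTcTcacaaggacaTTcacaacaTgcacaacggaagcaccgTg
Tet1 exon 6: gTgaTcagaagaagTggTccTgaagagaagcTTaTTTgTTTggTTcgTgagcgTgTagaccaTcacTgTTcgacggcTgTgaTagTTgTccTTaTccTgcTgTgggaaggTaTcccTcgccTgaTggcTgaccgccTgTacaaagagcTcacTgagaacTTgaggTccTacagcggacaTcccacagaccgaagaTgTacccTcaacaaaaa
Tet2 exon 9: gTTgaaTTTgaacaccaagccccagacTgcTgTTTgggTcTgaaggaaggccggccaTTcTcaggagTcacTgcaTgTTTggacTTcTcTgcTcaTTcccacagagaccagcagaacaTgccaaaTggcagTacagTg
Tet2 exon 6: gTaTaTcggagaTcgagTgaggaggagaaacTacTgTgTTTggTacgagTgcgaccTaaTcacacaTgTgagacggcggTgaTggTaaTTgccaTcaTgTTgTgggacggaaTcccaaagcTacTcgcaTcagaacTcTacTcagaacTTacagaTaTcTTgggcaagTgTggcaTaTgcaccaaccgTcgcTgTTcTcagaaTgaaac

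Transcript levels are given as reads per kb of annotated exon, scaled to the same sum in every library (1000000), as means over the libraries of a replicate. Uhrf1, the maintenance factor, had the highest level of the 8 in all 4 fractions, and the de novo enzyme Dnmt3a and the glycosylase Tdg had the lowest. In the nucleus the level of Uhrf1 was 497, 507, 481, 604, 361 and 424 in replicates 1 to 6 (mean 479 ± 81.9, SD, n = 6), above every replicate of the other members. Dnmt1, the maintenance methyltransferase, followed with nuclear levels of 165, 170, 257, 339, 104 and 133 (195 ± 87.4). Tet1 had nuclear levels of 143, 108, 172, 153, 44.7 and 58.6 (113 ± 52.1), which overlapped those of Dnmt1. Dnmt3b, Dnmt3l and Tet2 had mean nuclear levels of 81.4 ± 29.4, 59.8 ± 10.9 and 58.7 ± 31.3 and did not differ beyond their spread. Dnmt3a (13.5 ± 3.13) and Tdg (8.69 ± 2.26) overlapped each other and lay below every replicate of the other 6. The highest mean was 55.1 times the lowest in the nucleus.

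In the cytosol, Uhrf1 was again first with 184 to 274 (mean 236 ± 31.0). Dnmt1 (69.9 ± 11.2), Dnmt3b (65.0 ± 18.4) and Dnmt3l (47.4 ± 9.16) came next, each overlapping its neighbor. The dioxygenases Tet2 (25.1 ± 9.55) and Tet1 (23.6 ± 8.54) had about the same cytosolic level, and Dnmt3a (16.3 ± 2.77) and Tdg (12.9 ± 3.07) overlapped both. Membrane levels had the same first member, with 128 ± 45.7 for Uhrf1, and the same last, with 6.66 ± 1.70 for Tdg. Whole-cell means ran from 9.18 ± 1.85 for Tdg to 281 ± 72.4 for Uhrf1.

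**Figure D1:**
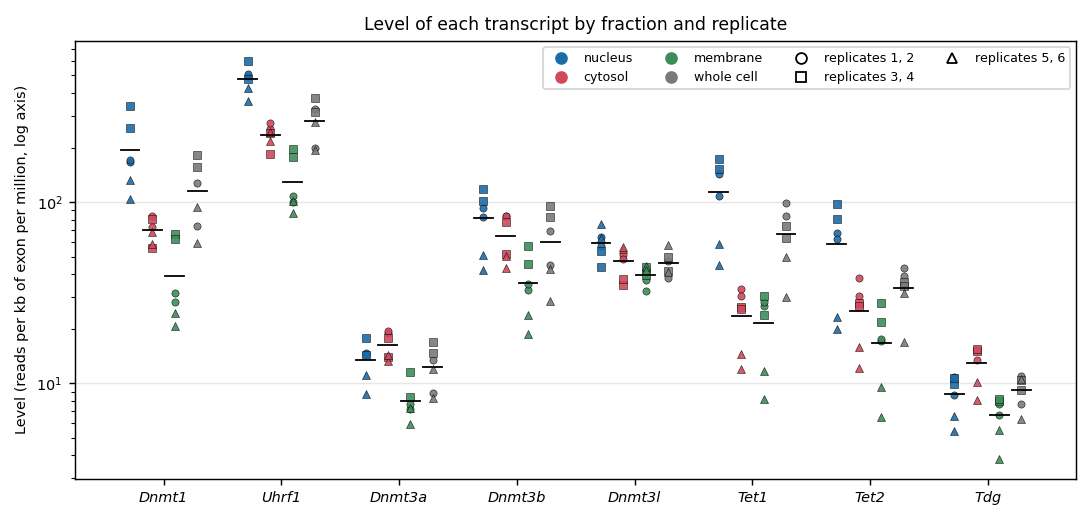
Levels of the 8 transcripts in reads per kb of exon per 1000000 (log axis) by fraction (colors), with a point for each of 6 replicates (symbols mark replicate pairs) and a bar at the mean. Uhrf1 lies highest in each fraction, and Tet1 shows the widest gap between nucleus (113 on average) and cytosol (23.6).

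The levels of fractions were compared across 18584 genes with edgeR's quasi-likelihood test and Benjamini-Hochberg adjustment, and genes were called where the adjusted p was below 0.05 and the log2 difference exceeded 0.5 in size. Between nucleus and cytosol 6 of the 8 were called, where 64.9% of all genes tested were called. Dnmt1, Uhrf1, Tet1 and Tet2 were higher in the nucleus, as were 35.3% of all genes, and Dnmt3a and Tdg were higher in the cytosol, as were 29.5%. The edgeR differences are scaled by TMM, whereas levels and their ratios are scaled to the same sum in every library. A difference and a level ratio of the same gene can therefore differ in size and, near 0, in sign. Either way, values tell how the RNA of a fraction is made up. In such bulk samples fewer cells and less RNA per cell cannot be told apart.

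Of the maintenance pair, Dnmt1 was higher in the nucleus than in the cytosol in 6 of 6 replicates, with level ratios from 1.78 to 4.59. Its log2 difference was 0.93 ± 0.14 (SE; edgeR adjusted p = 5.82e-08). The log2 level ratio of Dnmt1 was 1.11 in replicates 1 and 2, 2.13 in replicates 3 and 4 and 0.90 in replicates 5 and 6. Uhrf1 was 1.66 to 2.61 times higher in the nucleus, with a log2 difference of 0.55 ± 0.09 (edgeR adjusted p = 2.55e-07) close to the fold limit. Its log2 level ratio within the pairs was 0.93, 1.36 and 0.76.

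In the de novo group, Dnmt3a was lower in the nucleus, with a log2 difference of -0.76 ± 0.07 (edgeR adjusted p = 4.75e-13). Its level ratio ran from 0.663 to 1.03, and the log2 ratio was -0.40 in replicates 1 and 2, 0.02 in replicates 3 and 4 and -0.48 in replicates 5 and 6. The call of Dnmt3a was lost without replicate 3 (-0.48) and with scaling to library totals alone (-0.44). For Dnmt3b and Dnmt3l the log2 differences were -0.19 ± 0.12 (edgeR adjusted p = 0.153) and -0.13 ± 0.12 (edgeR adjusted p = 0.342), neither was called, and both changed sign to 0.14 and 0.19 with library totals. The level ratio of Dnmt3l, which is per library total, nevertheless varied little, from 1.15 to 1.43 over the 6 replicates. That of Dnmt3b ran from 0.964 to 1.97.

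Among the demethylation genes, Tet1 was the most nuclear member: its nuclear level was 3.55 to 6.56 times the cytosolic one in the 6 replicates, and the log2 difference was 1.72 ± 0.15 (edgeR adjusted p = 4.05e-14). Within the replicate pairs the log2 level ratio of Tet1 was 1.97, 2.64 and 1.96. Tet2 was 1.47 to 3.56 times higher in the nucleus, with a log2 difference of 0.64 ± 0.17 (edgeR adjusted p = 0.000711). With counts summed per replicate, Tet2 (0.64, edgeR adjusted p = 0.0654) and Uhrf1 (0.49) were no longer called. Tdg went the other way in 6 of 6 replicates, with level ratios between 0.639 and 0.716 per library total. Its TMM-scaled log2 difference was -1.08 ± 0.09 (edgeR adjusted p = 3.04e-14), and it was -0.74 with library totals. The median gene shifted by 0.04 with the TMM scaling used here, by 0.24 with RLE size factors or DESeq2 and by 0.37 with library totals. The calls moved from 6563 higher and 5491 lower genes to 7525 and 4263 with RLE and to 8171 and 3433 with library totals. Relative to the median gene, the difference of Tet1 was 1.68 under all 4 scalings, that of Dnmt1 0.89, that of Tdg -1.12 to -1.11 and that of Dnmt3a -0.81 to -0.80. A scaling shifts all genes of a library alike, so that these values had to agree and are no check on the scaling.

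The membrane fraction was set against the same cytosolic libraries. Between membrane fraction and cytosol 3 of the 8 were called, all lower at the membrane, where 35.0% of all genes were called and 11.6% were called lower. They were Dnmt3a (log2 difference -0.60 ± 0.07, edgeR adjusted p = 8.36e-10), Tdg (-0.54 ± 0.09, edgeR adjusted p = 2.55e-06) and Dnmt1 (-0.51 ± 0.14, edgeR adjusted p = 0.00154). Uhrf1 at -0.50 (edgeR adjusted p = 3.38e-06) and Dnmt3b at -0.48 (edgeR adjusted p = 0.000646) stayed just under the fold limit. Fractions of one culture came from the same cells, and with the culture as a block Uhrf1 at -0.51 and Dnmt3b at -0.50 were also called, making 5. This block is a culture at a labeling time, so that the times of a replicate count as separate cultures. Dnmt3l at 0.22, Tet1 at 0.28 and Tet2 at -0.21 were not called. Per library total, the membrane to cytosol ratio of Tdg was 0.474 to 0.542 in the 6 replicates, the narrowest range of the 8. That of Dnmt1 was 0.353 to 1.18, above 1 in 1 of 6 replicates, and its log2 ratio was -1.38 in replicates 1 and 2, -0.06 in replicates 3 and 4 and -1.49 in replicates 5 and 6. The call of Dnmt1 was lost without replicate 2 (-0.45) or 6 (-0.48), leaving 2 of the 8 called, while without replicate 3, 4 or 5 there were 5. It was also lost with all 72 libraries (-0.43) and with counts summed per replicate (-0.48, edgeR adjusted p = 0.0883), where Dnmt3b had -0.45 and was not called and Dnmt3a and Tdg were. The median gene shifted by -0.13, and by -0.48 with library totals, which turned the calls from 4341 higher and 2155 lower to 3751 and 8090. Dnmt3l lay 0.35 and Tet1 0.41 above the median gene with TMM, and 0.33 and 0.41 above it with library totals. Here too the subtraction removes the effect of the scaling.

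The share of new to total mRNA of a gene is its T2C count divided by its T count and by the conversion rate of the library, over all exons. RNA reaches the cytosol and the membrane fraction from the nucleus, so that shares there are not rates of local turnover. Slow and fast refer below to the share alone. No background was subtracted. Unlabeled libraries were not used here, and shares of about 0.01 at the shortest times cannot be told from sequencing error. For all 8 transcripts the shares were higher at 120 min than at the shortest times, but they did not rise at every step. In the membrane fraction, for example, Dnmt3l had 0.0160 and 0.0157 at 15 min in replicates 1 and 2. At 30 min it had 0.00483 and 0.00767 there. By 120 min the shares of the 8 transcripts stood far apart. Of the nuclear Tet2 mRNA 0.803 and 0.805 was new in replicates 5 and 6 at 120 min, against 0.0978 and 0.0871 of the nuclear Dnmt3l mRNA.

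Of the maintenance genes, Dnmt1 had nuclear shares of 0.0131, 0.0137, 0.0444 and 0.0275 in replicates 1 to 4 at 20 min. They were 0.177, 0.0943, 0.131 and 0.105 in replicates 3 to 6 at 60 min, and 0.280 and 0.249 at 120 min. Its cytosolic shares were 0.00619 to 0.0169 at 20 min, 0.0353, 0.0337, 0.108 and 0.0833 at 60 min, and 0.217 and 0.201 at 120 min. The nuclear share of Dnmt1 exceeded the cytosolic one in 15 of 16 cultures, and by 1.26 times at 120 min (the median of 2 cultures). No ratio is given for the shortest times, where cytosolic shares were near 0.01. Uhrf1 had nuclear shares of 0.0389, 0.0519, 0.0947 and 0.0766 at 20 min, 0.253, 0.135, 0.206 and 0.169 at 60 min, and 0.302 and 0.282 at 120 min. In the cytosol Uhrf1 reached 0.0165, 0.0135, 0.0172 and 0.0200 at 20 min, 0.0478, 0.0566, 0.127 and 0.103 at 60 min, and 0.240 and 0.239 at 120 min. Its nuclear share was the higher one in 16 of 16 cultures.

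In the de novo group, Dnmt3b had nuclear shares of 0.0279, 0.0397, 0.0912 and 0.0627 at 20 min, and 0.207 and 0.192 at 120 min. Its cytosolic shares were 0.0150 to 0.0207 at 20 min, and 0.132 and 0.164 at 120 min. The nuclear share of Dnmt3b was higher in 16 of 16 cultures. Dnmt3a rose in the nucleus from 0.0158, 0.0276, 0.0546 and 0.0468 at 20 min to 0.241 and 0.257 at 120 min, and in the cytosol from 0.0129 to 0.0166 at 20 min to 0.163 and 0.197 at 120 min. Its nuclear share was higher in 14 of 16 cultures. Dnmt3l, the cofactor without catalytic activity of its own, gained the least label: its nuclear share was 0.0104, 0.00442, 0.0529 and 0.0256 at 20 min, and its cytosolic share was still only 0.0910 and 0.0637 at 120 min. The nuclear share of Dnmt3l was higher in 13 of 16 cultures.

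Of the demethylation genes, Tet2 had nuclear shares of 0.0682, 0.105, 0.175 and 0.155 at 20 min, 0.497, 0.360, 0.515 and 0.468 at 60 min, and 0.803 and 0.805 at 120 min. Cytosolic Tet2 followed from 0.0312, 0.0324, 0.0497 and 0.0574 at 20 min to 0.328, 0.275, 0.557 and 0.497 at 60 min and to 0.844 and 0.855 at 120 min. The nuclear share of Tet2 led by 2.97 times at 20 min (median of 4 cultures) and fell slightly below the cytosolic one at 120 min, at 0.946 times. Tdg, the glycosylase, had nuclear shares of 0.0589, 0.0466, 0.170 and 0.0912 at 20 min, and 0.291 and 0.299 at 120 min. Its cytosolic shares were 0.00941 to 0.0157 at 20 min, and 0.272 and 0.307 at 120 min. Tdg was higher in the nucleus in 15 of 16 cultures, and at 120 min the median ratio was 1.02.

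In Tet1, the other dioxygenase, the order of the fractions turned over within the time course. Its nuclear shares were 0.0984, 0.145, 0.201 and 0.144 at 20 min, 0.275, 0.114, 0.269 and 0.252 at 60 min, and 0.501 and 0.443 at 120 min. Its cytosolic shares were 0.0742, 0.0829, 0.0856 and 0.106 at 20 min, 0.427, 0.345, 0.609 and 0.636 at 60 min, and 0.747 and 0.742 at 120 min. The nucleus was thus ahead at 15 and 20 min in 6 of 6 cultures and behind at 40, 60 and 120 min in 8 of 8. The median ratio of nuclear to cytosolic share went from 1.98 at 15 min and 1.55 at 20 min over 1.14 at 30 min to 0.644 at 40 min, after which it was 0.419 at 60 min and 0.634 at 120 min. The 120 min libraries of replicates 3 and 4, which entered no test of shares, had 0.420 and 0.335 in the nucleus and 0.667 and 0.582 in the cytosol. Replicate 4 had nuclear shares of 0.144, 0.164 and 0.114 at 20, 40 and 60 min.

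**Figure D2:**
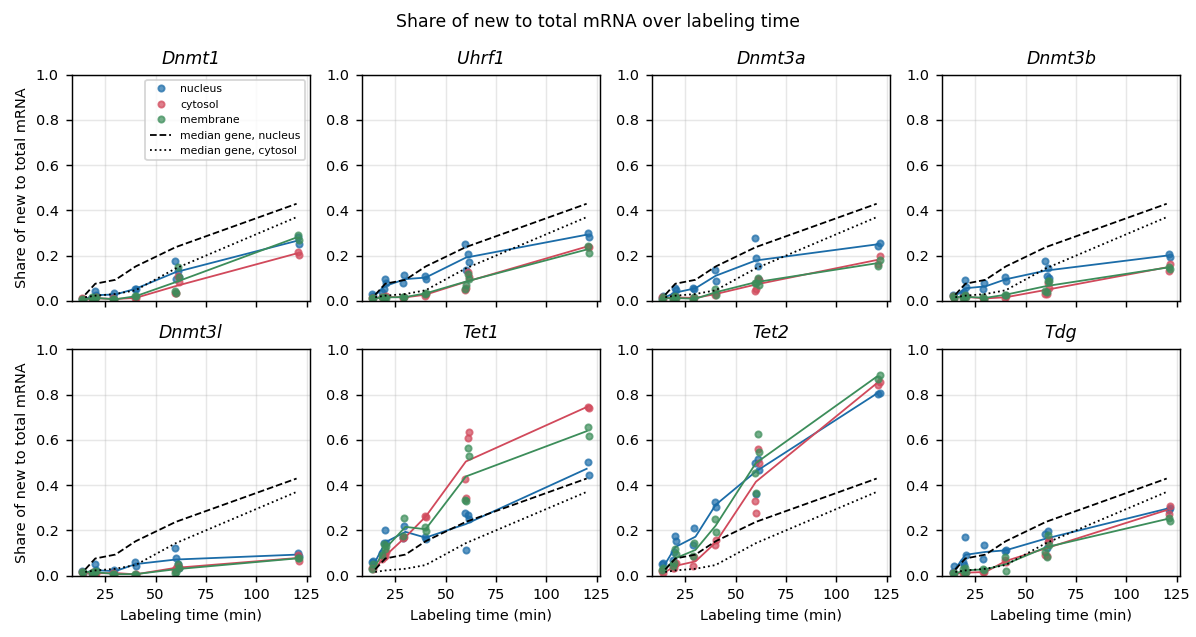
Share of new to total mRNA of each gene against labeling time in min, for the nucleus, cytosol and membrane fraction (a point per library, spread slightly sideways by replicate, with lines through the means), and means of the median gene in the nucleus (dashed) and cytosol (dotted). Tet2 reaches 0.804 in the nucleus and Dnmt3l 0.0924 at 120 min on average, and Tet1 is the gene whose cytosolic line crosses above its nuclear line at 40 min.

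The shares of nucleus and cytosol were tested across 11575 genes on log2(share + 0.01) with limma and Benjamini-Hochberg adjustment, so that differences of low shares are understated. Of the 8 genes 7 were called, all with a higher share in the nucleus, where 74.8% of genes were called and 73.9% were higher, so that a higher nuclear share is what most genes showed. The log2 differences were 0.75 ± 0.19 for Dnmt1 (limma adjusted p = 0.000542) and 1.20 ± 0.15 for Uhrf1 (limma adjusted p = 5.42e-09). They were 0.97 ± 0.18 for Dnmt3a (limma adjusted p = 8.72e-06), 1.18 ± 0.17 for Dnmt3b (limma adjusted p = 5.95e-08) and 0.68 ± 0.19 for Dnmt3l (limma adjusted p = 0.00137). Tet2 and Tdg had 0.85 ± 0.16 (limma adjusted p = 6.58e-06) and 1.04 ± 0.18 (limma adjusted p = 3.43e-06). Tet1 was not called, with -0.13 ± 0.14 (limma adjusted p = 0.389).

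The differences varied between the replicate pairs, whose labeling times also differ. For Dnmt3l they were 0.04 in replicates 1 and 2, 1.67 in replicates 3 and 4 and 0.15 in replicates 5 and 6, and its call was lost without replicate 3 (0.46, limma adjusted p = 0.0381). For Tet2 they were 1.27, 1.00 and -0.09, and for Tdg 1.54, 1.27 and 0.12. Uhrf1 kept 1.29, 1.67 and 0.47, and Dnmt3b kept 0.95, 1.85 and 0.60. Tet1 went from 0.50 over -0.30 to -0.94. Without the 15 and 20 min libraries the difference of Tet1 was -0.56, which is a description only, since it leaves out the 6 cultures in which the nucleus was ahead. In that fit 1.55% of 11705 genes were called lower in the nucleus (181 genes, limma). With each replicate's values averaged over its times, none of the 8 was called and 1 of the 11575 genes was (704 at an unadjusted p under 0.05, limma).

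Shares were next compared with the median gene of the same library, which takes out the conversion rate and the common rise with time. The later labeling of exons far from the 3′ end is not taken out, so that a share also depends on where a gene's reads lie. Against this yardstick Tet1 and Tet2 were called higher in every fraction, and Dnmt3l, Dnmt1, Dnmt3a and Dnmt3b were new more slowly, while Tdg was not called in any. In the nucleus 2 members were called higher, where 24.3% of genes were, and 4 were called lower, where 28.1% were. In the cytosol 2 were higher and 5 lower, with 28.8% and 29.0% of genes. In the membrane fraction 2 were higher and 4 lower, with 29.0% and 28.4%. In whole cells 2 were higher and 4 lower, with 26.9% and 29.3%, and the counts were the same without replicate 6. With a pseudocount of 0.05 in place of 0.01, which weighs low shares less, 3, 4, 3 and 3 members were called in these fractions.

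Dnmt3l was the slowest member. Its share was 0.0812 to 0.578 times that of the median gene in the 16 nuclear libraries (median 0.269) and below it in 16 of 16. The log2 difference was -1.53 ± 0.12 in the nucleus (limma adjusted p = 4.15e-08), -1.27 ± 0.09 in the cytosol (limma adjusted p = 5.16e-08) and -1.20 ± 0.07 in the membrane fraction (limma adjusted p = 3.76e-09). In whole cells it was -1.43 ± 0.10 (limma adjusted p = 2.39e-08), and -1.47 without replicate 6. Dnmt1 had 0.252 to 0.642 times the share of the median gene in the nucleus and lay below it in all 64 libraries. At 120 min it was close to the median gene in the membrane fraction, with 0.911 and 0.942 times its share in replicates 5 and 6. The difference of Dnmt1 was -1.11 ± 0.06 in the nucleus (limma adjusted p = 7.42e-10), -0.91 ± 0.05 in the cytosol (limma adjusted p = 4.54e-09) and -0.67 ± 0.09 in the membrane fraction (limma adjusted p = 1.48e-05). Dnmt3a and Dnmt3b were close to each other in the nucleus, at -0.62 ± 0.10 and -0.60 ± 0.05. In the cytosol they had -0.65 ± 0.05 and -0.84 ± 0.05, and at the membrane -0.63 ± 0.12 and -0.58 ± 0.06 (limma adjusted p from 5.46e-09 to 0.000385 over these 6 values). Without replicate 1 the membrane difference of Dnmt3a was -0.43 and not called.

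Uhrf1, which works with DNMT1, was less far below the median gene: -0.26 ± 0.05 in the nucleus, -0.52 ± 0.04 in the cytosol and -0.42 ± 0.06 at the membrane, of which only the cytosolic value was called (limma adjusted p = 1.16e-07). For Tdg the values were -0.19 ± 0.10, -0.28 ± 0.05 and -0.13 ± 0.11.

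At the fast end, Tet2 had 1.52 to 2.44 times the share of the median gene in the nucleus (median 1.90) and lay above it in 16 of 16 nuclear libraries. The log2 difference was 0.84 ± 0.05 in the nucleus (limma adjusted p = 1.72e-09), 0.93 ± 0.07 in the cytosol (limma adjusted p = 7.04e-08) and 1.50 ± 0.08 at the membrane (limma adjusted p = 1.70e-09). In whole cells it was 1.14 ± 0.08 (limma adjusted p = 2.61e-08), also without replicate 6. Tet1 had 1.89 to 5.94 times the share of the median gene in the cytosol, at percentiles 80.1 to 94.7 of genes. Its difference was 1.58 ± 0.05 in the cytosol (limma adjusted p = 3.84e-11), 1.70 ± 0.07 at the membrane (limma adjusted p = 1.66e-10) and 0.97 ± 0.06 in whole cells (limma adjusted p = 3.78e-09; 0.94 without replicate 6). In the nucleus it was 0.50 ± 0.07 (limma adjusted p = 2.98e-05), just past the limit, and it fell under the limit without replicate 2 (0.44), 5 (0.49) or 6 (0.49). The multiple of the median gene's share in the nucleus was 2.32 in replicates 1 and 2, 1.19 in replicates 3 and 4 and 1.09 in replicates 5 and 6 for Tet1, while for Tet2 it was 1.88, 1.83 and 1.96. At 60 min the nuclear share of Tet1 was at percentiles 22.8 to 57.4 of genes and at 120 min in replicates 5 and 6 at 54.9 and 58.7, so that it stood near the median gene there.

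**Figure D3:**
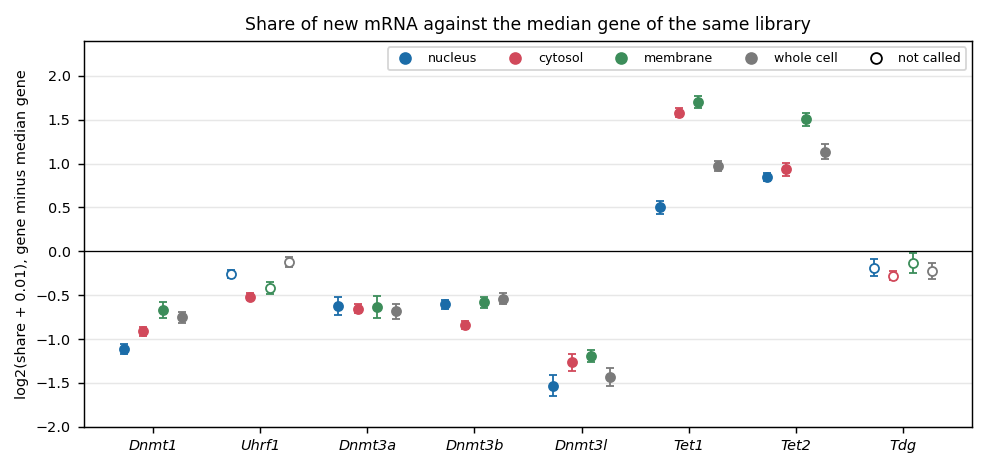
Difference of log2(share + 0.01) between each gene and the median gene of the same library, averaged over labeling times, by fraction (colors), with bars of 1 standard error. Filled points were called. Tet1 and Tet2 lie above 0 and Dnmt3l lies lowest in each fraction, at -1.53 in the nucleus.

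Between membrane fraction and cytosol none of the 8 shares was called, where 10.4% of genes were (limma). At an unadjusted p under 0.05, 2252 of the 11575 genes passed. Tet2 came nearest: its membrane share exceeded the cytosolic one in 16 of 16 cultures, by 1.03 to 2.82 times. The log2 difference of Tet2 was 0.49 ± 0.16 (limma adjusted p = 0.0342), just under the size limit, and it was 0.61 in replicates 1 and 2, 0.61 in replicates 3 and 4 and 0.10 in replicates 5 and 6. Its membrane shares were 0.0401, 0.0542, 0.117 and 0.0931 at 20 min, 0.451, 0.366, 0.627 and 0.545 at 60 min, and 0.870 and 0.888 at 120 min. The differences of the other 7 ran from -0.07 to 0.18. Membrane and cytosolic shares of Tet1 were 0.658 and 0.618 against 0.747 and 0.742 at 120 min, and the membrane value was the lower one in 8 of 8 cultures from 40 min on.

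Reads in introns show unspliced RNA, which in poly(A)-selected libraries is RNA that was cleaved at its 3′ end with introns still present. In the nucleus the intron share exceeded the exon share for all 8 genes in 16 of 16 libraries, and all 8 were called, where 96.0% of 10380 genes were called higher (limma on the difference of log2(share + 0.01) within a library). A higher intron share was therefore no mark of this group, but its size differed between members. The difference was 3.05 ± 0.11 for Dnmt3a (limma adjusted p = 2.79e-12), 2.95 ± 0.13 for Dnmt3l (limma adjusted p = 1.81e-11) and 2.72 ± 0.09 for Dnmt1 (limma adjusted p = 1.51e-12). It was 2.52 for Tdg, 2.16 for Dnmt3b, 2.14 for Uhrf1 and 2.04 for Tet1. Tet2 had the smallest, 1.16 ± 0.06 (limma adjusted p = 1.43e-10), with an intron share 1.17 to 4.00 times that of its exons.

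Of the 8, Tet1 had the highest mean intron share at 15, 20 and 30 min, while at 40 min Dnmt3a (1.09) lay above Tet1 (0.884). The nuclear intron share of Tet1 was 0.361 and 0.430 at 15 min, and the 4 values at 20 min were 0.543 to 0.765. Introns of the median gene had 0.136 and 0.319 on average at these times. Dnmt3a introns had 0.251 and 0.394 at 15 min and Tdg introns 0.216 and 0.259. Dnmt3l (0.0571 and 0.0858), Dnmt3b (0.0699 and 0.0910), Uhrf1 (0.100 and 0.120) and Dnmt1 (0.107 and 0.120) were all below the median gene in mean at 15 min. By 120 min the mean intron share was 0.921 to 1.02 for all 8, and the 0.941 of the median gene lay within that range. Shares above 1 arise because they are divided by an estimated conversion rate. The fast introns of Tet1 and Dnmt3a thus came with unlike exon shares, since nuclear exons at 20 min had a mean of 0.147 for Tet1 and 0.0362 for Dnmt3a.

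Unspliced RNA was a small part of the Tet1 reads. The T count in introns was 0.0668 ± 0.0222 times that in exons in the nucleus (n = 6), where the median gene had 0.335 ± 0.121. Tdg, with 0.489 ± 0.240, was the one member above the median gene in the nucleus. In the cytosol Tet2 stood apart with 0.179 ± 0.0537 against 0.0782 ± 0.0341 for the median gene, and at the membrane with 0.219 ± 0.0736 against 0.0682 ± 0.0219. The other 7 members had 0.0237 to 0.0623 in the cytosol. Intron reads depend on the annotation, and exons or transcripts that the annotation lacks would be counted as introns.

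**Figure D4:**
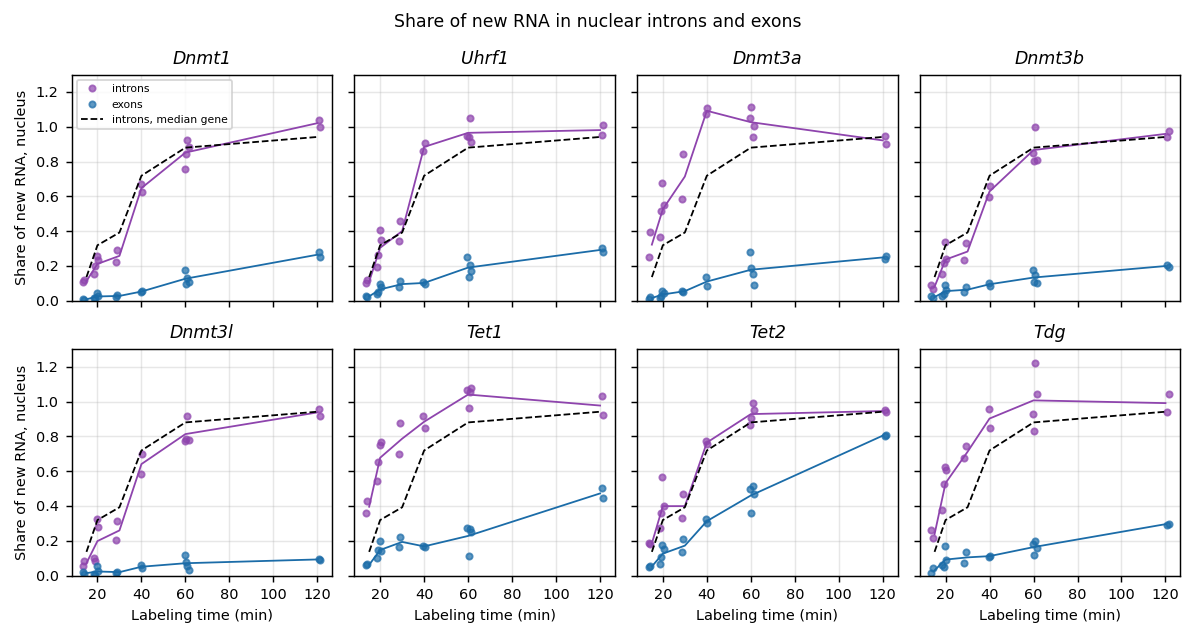
Share of new RNA in introns (purple) and exons (blue) of each gene in the nucleus against labeling time in min, a point per library with lines through the means, and the mean over libraries of the median gene's intron share (dashed). Introns of Tet1 reach 0.396 on average at 15 min, and introns lie above exons in all 16 libraries for each gene.

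Polymerases that were already under way when labeling began add 4sU only to what lies ahead of them, so the 3′ exons of finished transcripts are the first in which label is read. Exons under 5 kb from the 3′ end were therefore set against those over 20 kb away in the nuclear libraries, as a description with no test. This could be done for 6 genes, as Dnmt3l has no exon over 20 kb from its 3′ end and the far exons of Dnmt3a had too few T counts (under 400 in a library). At 40 min the far to near ratio of shares had a median of 0.329 over the 6 genes, and of 0.486 when exons over 10 kb were taken as far.

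The far exons of Dnmt1 had 0.262 times the share of its near exons at 40 min, 0.457 times at 60 min and 0.974 times at 120 min. In Uhrf1 the ratio was 0.336, 0.621 and 0.725, and far exons were lower in 16 of 16 libraries. Dnmt3b went from 0.167 over 0.518 to 0.867. In Tet2 the ratio was 0.660, 0.800 and 0.919. Tdg stayed at 0.229 at 120 min, though on as few as 407 T counts in its far exons. Tet1 differed, with far exons below near ones at 20 min (0.523 times) and above them at 40 min (1.24 times) and 60 min (1.89 times, 1.11 to 3.48 over 4 libraries), and close to them at 120 min (1.07 times). Near the 3′ end of Tet1 the reads come from 2 listed exons whose counts overlap. Their T counts were 1265734 in replicate 1 at 15 min, against 677667 for the whole gene. Reads are thus counted more than once there, and the near exons of Dnmt3b and Tet2 likewise exceeded their whole genes in that library.

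The exons printed above show the same for single coding exons. Exon 36 of Dnmt1, 1.98 kb from the 3′ end, had nuclear shares of 0.0302, 0.0876, 0.150 and 0.253 after 20, 40, 60 and 120 min of labeling. Exon 16, 19.3 kb away, had 0.00943, 0.0319, 0.102 and 0.395 at the same times. Exon 36 was thus ahead up to 60 min and exon 16 at 120 min. In Tet2, exon 9 had 0.0563, 0.299, 0.475 and 0.878, ahead of exon 6 at every time (0.0211, 0.146, 0.310 and 0.729). In Tet1, exon 9 led exon 6 at 20 min with 0.115 against 0.0868, and exon 6 led from 40 min on, with 0.218 against 0.185 at 40 min, 0.435 against 0.273 at 60 min and 0.598 against 0.427 at 120 min. These shares are means over 2 or 4 libraries, and the fewest T counts behind one in any library were 544 for exon 6 of Tet2.

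**Figure D5:**
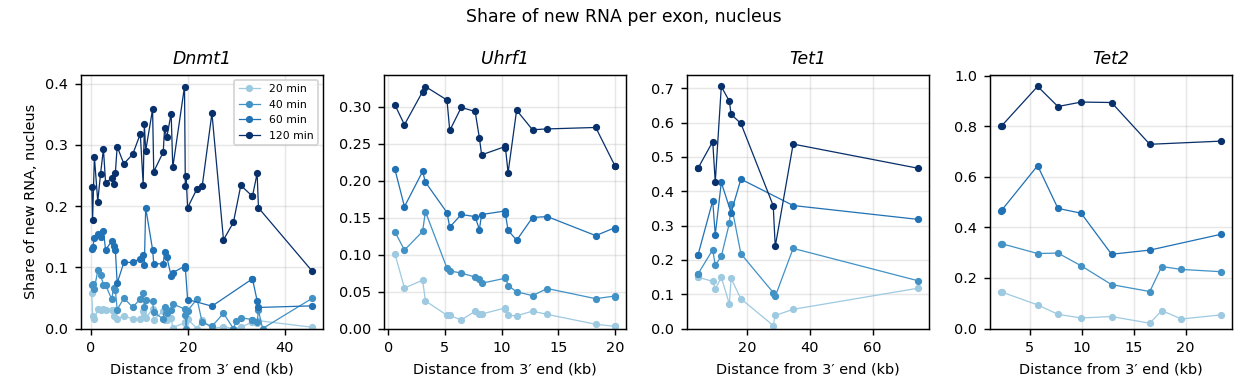
Mean share of new RNA in the nucleus of each exon against its distance from the 3′ end of the gene in kb, for 4 genes and labeling times of 20, 40, 60 and 120 min (shades), with exons of at least 400 T counts in every library and a y axis of its own for each gene. At 40 min the exons of Dnmt1 and Uhrf1 decline with distance (far to near 0.262 and 0.336), whereas those of Tet1 do not (1.24).

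Levels were also compared between labeling times. Every library was labeled, so that a change already present at the shorter time would not show. None of the 8 was called in any of the 6 comparisons (edgeR). From 20 to 120 min in replicates 3 and 4, 0.113% of genes were called in whole cells, 2.91% in the nucleus and 1.04% in the cytosol. All comparisons of 20 with 120 min used the 120 min libraries that were otherwise set aside. From 20 to 60 min in replicates 3 and 4 and from 60 to 120 min in replicates 5 and 6 of whole cells, 0% of genes were called with edgeR and none with DESeq2 (747 and 123 genes at an unadjusted edgeR p under 0.05). The second of these includes the whole-cell libraries of replicate 6 whose labeling goes against their labels, and without replicate 6 there were 0 calls and 992 genes at an unadjusted p under 0.05 (edgeR). The change from 20 to 120 min did not differ between nucleus and cytosol for any gene (0% called, 1420 genes at an unadjusted p under 0.05, edgeR). Dnmt1 had the largest member differences, 0.54 ± 0.22 in the nucleus (edgeR adjusted p = 0.160) and 0.59 ± 0.20 in the cytosol (edgeR adjusted p = 0.183). In the cytosol it was called without the filter on low counts (0.57, edgeR adjusted p = 0.0174), and without replicate 3 both Dnmt1 (0.85, edgeR adjusted p = 0.0113) and Uhrf1 (0.57, edgeR adjusted p = 0.0140) were called. With 2 libraries against 2, these tests allow only wide limits.

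Levels were also set side by side between the replicate pairs. In replicates 5 and 6 the nuclear level of Tet2 was 20.0 and 23.2, against 67.2, 62.7, 98.2 and 80.6 in replicates 1 to 4, with no overlap, and the ratio of the means was 0.280. For Tet1 the ratio was 0.359, for Dnmt3b 0.472, for Dnmt1 0.510, for Tdg 0.598, for Dnmt3a 0.649 and for Uhrf1 0.752, and the median of 15362 genes was 0.654. Dnmt3l went up, with 63.3 and 76.1 against 43.8 to 64.4 and a ratio of 1.27, at percentile 94.8 of genes. In the cytosol the ratios of Tet1 and Tet2 were 0.458 and 0.456, at percentiles 2.29 and 2.23 of genes, and in the membrane fraction their percentiles were 1.39 and 1.64. The pairs differ in culture and, except at 60 min, in labeling time, and the part of each, or of the 4sU dose, was not tested.

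The genes with the shares most like those of each member were found by the root mean square difference of log2(share + 0.01) over 48 nuclear, cytosolic and membrane libraries, among 11574 other genes. For Dnmt1 they were Wdr12 (0.30) and Ezh2 (0.32), for Uhrf1 Trip12 (0.20) and Mcm7 (0.23), and for Tet2 Kdm2a (0.22) and Gpatch8 (0.22). For Tet1 they were Taok1 (0.21) and Sp1 (0.31), for Dnmt3a Supt16 (0.36) and Ppp2r5c (0.37), and for Dnmt3b Pcbp2 (0.23) and Nono (0.23). For Dnmt3l they were Eif3k (0.35) and Cox6c (0.36), and for Tdg Kif5b (0.31) and Ppat (0.34). No member was nearest to another: Uhrf1 and Dnmt3b, the closest pair, differed by 0.43, and Tet1 and Tet2 by 0.70.

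A wider list of 46 genes of the pathway was set beside the 8, in 5 groups: partners of maintenance, readers of methylated DNA, further demethylation and base excision repair, targeting of methylation, and supply of the methyl donor. Between nucleus and cytosol, 9 of the 46 were called higher in the nucleus and 12 lower, where 35.3% and 29.5% of all genes were, with a median log2 difference of -0.00 against 0.04 over all genes. The uracil glycosylase Ung leaned the most toward the cytosol (-1.46 ± 0.09, edgeR adjusted p = 1.01e-18). Between membrane and cytosol, 0 were called higher and 10 lower, where 11.6% of all genes were lower, led by Cdca7l (-0.95 ± 0.13, edgeR adjusted p = 1.13e-08), with a median of -0.34 against -0.13 over all genes. Of 42 with enough T counts, 38 had the higher share in the nucleus, as had 73.9% of all genes, and 0 in the cytosol, with a median of 1.11 against 0.86 over all genes, and Cdca7l had the largest difference (1.67 ± 0.21, limma adjusted p = 5.87e-09). Between membrane and cytosol only the reader Mbd4 was called in its share (0.53 ± 0.17, limma adjusted p = 0.0321), against 10.4% of all genes.

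Against the median gene, the 42 were split. In the nucleus 11 were called higher and 13 lower, where 24.3% and 28.1% of all genes were. In the cytosol the counts were 13 and 18, where 28.8% and 29.0% of all genes were called. In the membrane fraction they were 14 and 13, with 29.0% and 28.4% of all genes, and in whole cells 14 and 11, with 26.9% and 29.3%. Gadd45a, a DNA damage gene linked to demethylation, led in the nucleus (2.15 ± 0.07, limma adjusted p = 1.21e-11), the membrane fraction (2.41 ± 0.04, limma adjusted p = 2.02e-13) and whole cells (2.35 ± 0.10, limma adjusted p = 7.18e-10), and its relative Gadd45b in the cytosol (2.44 ± 0.08, limma adjusted p = 2.82e-11). Lowest were the DNA ligase Lig1 in the nucleus (-1.47 ± 0.07, limma adjusted p = 6.89e-10) and the glycosylase Neil3 in the cytosol (-1.31 ± 0.15, limma adjusted p = 2.76e-06) and whole cells (-1.69 ± 0.25, limma adjusted p = 3.50e-05). Neil3 was near the floor, with mean levels of 2.94 in the cytosol and 3.72 in whole cells. Its median shares there were 0.0139 and 0.00291 and its lowest 0, so that its place is uncertain. Shmt2, of one-carbon metabolism, was lowest at the membrane (-1.18 ± 0.06, limma adjusted p = 2.16e-09). Of the measured readers of methylated DNA 6 of 8 were called higher in the nucleus and in the cytosol, where 24.3% and 28.8% of all genes were. In the nucleus none of the readers was called lower, and in the cytosol Mbd3 was. Nuclear introns were called above exons in 37 of 40 genes, as in 96.0% of all genes, most so in Mthfd1.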

How the data were processed

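Poly(A) RNA of 72 SLAM-seq libraries was sequenced, and 64 were used. The authors mapped reads with STAR 2.7.6 to mm10 and deposited gene counts (HTSeq 0.11.1) and, per gene, exon and intron, counts of T and of T2C conversions with a conversion rate given as a fraction. Rows naming no gene held 30.392 to 48.765% of the reads and were left out. Shares were computed as T2C/T divided by that rate, which matched the ratio that the authors deposited to within 2.4e-13. Libraries held 13185351 to 52975732 reads on genes, and a gene entered the share tests when no library had fewer than 400 of its T counts. That minimum does not bound T2C counts: at 15 to 30 min a member's share rested on as few as 1, and counting error is large there. The replicates were cultured separately.

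Levels were tested with edgeR 4.0.16 (quasi-likelihood, TMM, filterByExpr) and shares with limma 3.58.1 on log2(share + 0.01), in R 4.3.3, with Benjamini-Hochberg adjustment over all genes. Genes were called by the limits of the study, 0.05 for the adjusted p and 0.5 for the size of the log2 difference. Both procedures were tested on simulated data with independent libraries, which held no differences between cultures or replicate pairs. Alternatives were DESeq2 1.42.0, other scalings, filters and pseudocounts, a block for the culture, and leaving out each replicate. Gene models came from Gencode M21 (GRCm38), which matched 51633 of the 51826 genes. Fractions of the same number and time come from the same culture: deviations of nucleus and cytosol correlated at -0.0780 to 0.485 (median 0.219) over 16 cultures, and those of membrane and cytosol at 0.214 to 0.827 (median 0.610). The members, the wider pathway list and the markers were chosen with earlier results of these data known. All 8 members are named, and of the pathway list the gene most changed in each direction, except for a gene and a sequence that are not reported here.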

Additional observations from a re-analysis of the deposited data

Results flagged for a closer look

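Among the 112 groups of 4 to 6 values examined, 4 held a library far from the others, and about 1 in 20 groups would by chance. The share of Tet1 in the nucleus at 60 min was 0.114 in replicate 4, while the other 3 replicates had 0.252 to 0.275. The share of Dnmt1 in the membrane fraction at 20 min was 0.00584 in replicate 2, on 8 T2C counts, where the others had 0.0141 to 0.0156. The share of Dnmt3l in whole cells at 20 min was 0.00335 in replicate 4, on 3 T2C counts, and the others had 0.0126 to 0.0144 on 10 to 13. The intron share of Dnmt3l in the nucleus at 60 min was 0.917 in replicate 5, against 0.771 to 0.782 in the others.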

How the results depend on the processing

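Counts of called members are given here against those of the report. For membrane against cytosol levels (3), 5 were called with DESeq2, with RLE size factors, without a filter on low counts and with the replicate block, 6 with library totals, and 2 to 5 when leaving out a replicate. For shares in nucleus against cytosol (7), 0 were called with values averaged per replicate, where each replicate mixes other labeling times. At their lowest over the 14 alternatives, the differences of Dnmt1 (0.39) and Dnmt3l (0.33) lay under the size limit of 0.5. For shares at the membrane against the cytosol (0), 1 was called with a pseudocount of 0.002, and 0 to 1 when leaving out a replicate. Against the median gene, a pseudocount of 0.05 left 3 for the nucleus, 4 for the cytosol, 3 for the membrane fraction and 3 for whole cells. For levels at 120 against 20 min (0), Dnmt1 was called with the replicate block in the nucleus (1) and in the cytosol (1), there also without the filter (1), and 0 to 2 members when leaving out a replicate. Replicates 3 and 4 share only a number over time, and the deviations of their 20 and 120 min libraries correlated at -0.0683 (whole cell) to 0.643 (membrane). The replicate block changed no other call of a count given here. The ratio of highest to lowest nuclear level was 44.6 without division by length (55.1), and the far to near ratio at 40 min was 0.486 with exons over 10 kb (0.329).

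Signs turned for values that were not called. Nuclear against cytosolic levels of Dnmt3b were 0.014 with DESeq2, 0.014 with RLE and 0.14 with library totals, and -0.16 to 0.052 when leaving out a replicate. Those of Dnmt3l were 0.072, 0.071 and 0.19, 0.012 without the filter, and -0.14 to 0.16. With library totals the membrane levels of Dnmt3l and Tet1 were -0.15 and -0.070. Tdg against the median gene at the membrane was -0.28 to 0.032 when leaving out a replicate. The cause was not tested. Over all genes, calls for membrane levels went from 6496 to 11841 with library totals. Calls at 120 against 20 min went from 518 to 975 (DESeq2) and 1803 (block) in the nucleus, from 170 to 296 and 1044 in the cytosol, and from 19 to 118 and 31 in whole cells. At 15 and 20 min, depth and background limit the shares near 0.01.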

Other observations

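The 120 min libraries of replicates 3 and 4 entered no test of shares, and their values for the other members are given here as they stand. The median gene had shares of 0.441 and 0.370 in the nucleus and of 0.233 and 0.235 in the cytosol in replicates 3 and 4. Tet2 had 0.774 and 0.761 in the nucleus and 0.722 and 0.732 in the cytosol, above the median gene in all 4 libraries. Dnmt3l had 0.106 and 0.0803 in the nucleus and 0.0592 and 0.0706 in the cytosol, and Dnmt1 had 0.350 and 0.207 in the nucleus and 0.113 and 0.0920 in the cytosol, both below the median gene in the 4 libraries. The cytosolic shares of Dnmt1 were lower than the 0.217 and 0.201 of replicates 5 and 6 at the same labeling time, and those of Tet2 were lower than 0.844 and 0.855. The 4sU dose of the libraries of replicates 3 and 4 differs between the labels and the methods of the study.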
